A study of Mus musculus with 16 samples.

Results

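The genes described here are 10 transcription factors known for setting endothelial identity, out of 55414 genes in the deposited count table. They were chosen by symbol: the SoxF genes *Sox7*, *Sox17* and *Sox18*, the ETS genes *Erg*, *Fli1*, *Ets1*, *Ets2* and *Elk3*, and *Tal1* and *Gata2*. All 10 were found, and all 10 passed the filter on low counts that left 15693 genes for testing.

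RNA was sequenced from MLECs, primary mouse lung endothelial cells in culture, to ask what BMP9 does to transcription with and without its co-receptor endoglin (ENG). The cells came from 4 isolations, numbered 1 to 4, of *Rosa26-CreERT2*;*Eng* fl/fl mice on a C57BL/6 background that also carried the Immorto transgene, and they were selected with CD31 and then ICAM2 beads. Each isolation gave all 4 groups. Ctrl cells (*Eng*+/+) had received vehicle and KO cells (*Eng*-/-) 4-OH-tamoxifen, so loss of *Eng* cannot be told apart from exposure to 4-OH-tamoxifen and active Cre. Because *Rosa26* drives Cre in every cell type, any cell in a culture could lose *Eng*. All cells were expanded in MV2 medium with interferon-γ and the TGF-β receptor inhibitor SB431542. Both additives and the tamoxifen metabolite were withdrawn before signalling assays, and the cells were then serum-starved overnight. Ctrl cells were given PBS or sENG(M):BMP9, a complex of BMP9 with monomeric soluble endoglin, and KO cells PBS or pro:BMP9, the complex of BMP9 with its prodomain. Both ligands were given for 90 min, and their dose, 0.2 ng/ml, refers to the mature growth factor. In the sENG(M):BMP9 treatment soluble endoglin was in large excess, to keep the complex stable. No such excess is described for the PBS or pro:BMP9 cells. In Ctrl cells the effect of BMP9 therefore cannot be told apart from that of excess soluble endoglin. The form of the ligand differs between the genotypes as well. In any KO against Ctrl comparison with ligand, neither effect can be told apart from that of *Eng* loss.

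These factors act together on the enhancers of endothelial genes. SoxF proteins bind through an HMG box and serve arterial, lymphatic and venous development. ETS proteins share a winged helix domain that binds a GGAA core, and ERG and FLI1 keep genes such as *Cdh5* active, whereas ETS1, ETS2 and ELK3 are also targets of MAP kinase signalling and ELK3 often represses. TAL1, a basic helix-loop-helix protein, and GATA2, a zinc finger protein, work in a complex with LMO2 and LDB1 in endothelial and blood progenitors. BMP9 signals through ALK1 to SMAD1 and SMAD5, which enter the nucleus with SMAD4.

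The genes lie on 8 chromosomes of GRCm39, the build of the deposited table. *Sox7* is at chr14:64181122-64188181 on the plus strand, *Sox17* at chr1:4561154-4567577 on the minus strand and *Sox18* at chr2:181311629-181313433 on the minus strand. *Tal1* is at chr4:114913623-114928952 and *Gata2* at chr6:88170873-88184014, both on the plus strand. *Fli1* (chr9:32333500-32454157, minus strand) and *Ets1* (chr9:32547517-32669116, plus strand) are neighbours, as are *Erg* (chr16:95160028-95387452, minus strand) and *Ets2* (chr16:95502942-95522095, plus strand). *Elk3* is at chr10:93083276-93146997 on the minus strand. In the GENCODE annotation, 8 of the 10 overlap other genes and *Sox7* and *Ets2* overlap none. *Erg*, *Fli1*, *Ets1* and *Tal1* overlap non-coding genes on their own strand, with which reads could be shared where exons overlap. *Sox17*, *Sox18*, *Elk3* and *Gata2* have overlapping genes on the opposite strand only, among them the coding gene *Cdk17* for *Elk3*. The library kit keeps strand, but the strand setting of the counting, which matters for overlaps on the opposite strand, is not given in the sources used here. Overlaps were taken between whole gene spans, and exons were not compared. Whether a neighbour affected the counts of these 8 genes is therefore not known.

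Promoters of members that responded to ligand are shown because SMAD, GATA, SOX and ETS proteins bind short known motifs. RefSeq windows of 300 bases (250 before the start and 50 from it on) were at hand for 5 of the 10 genes: *Erg*, *Ets2*, *Elk3*, *Tal1* and *Gata2*, with 9 windows in all. *Sox7*, *Sox17*, *Sox18*, *Fli1* and *Ets1* had no entry. *Tal1* promoter 2 (chr4:114914758-114915057, plus strand) held no match to any motif searched and is not printed. The windows below were listed for GRCm38.p6 and matched GRCm39 exactly once, at chr6:88170623-88170922 (*Gata2* promoter 1), chr6:88175396-88175695 (*Gata2* promoter 2), chr4:114913373-114913672 (*Tal1* promoter 1) and chr16:95503024-95503323 (*Ets2*), all on the plus strand. Capitals mark the matches to the motifs searched on both strands.
Gata2 promoter 1: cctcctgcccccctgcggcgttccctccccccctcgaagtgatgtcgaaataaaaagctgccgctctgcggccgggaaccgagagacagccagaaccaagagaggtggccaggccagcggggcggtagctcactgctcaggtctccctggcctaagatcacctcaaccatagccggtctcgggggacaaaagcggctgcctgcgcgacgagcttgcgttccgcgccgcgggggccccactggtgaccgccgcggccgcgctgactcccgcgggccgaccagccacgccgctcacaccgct
Gata2 promoter 2: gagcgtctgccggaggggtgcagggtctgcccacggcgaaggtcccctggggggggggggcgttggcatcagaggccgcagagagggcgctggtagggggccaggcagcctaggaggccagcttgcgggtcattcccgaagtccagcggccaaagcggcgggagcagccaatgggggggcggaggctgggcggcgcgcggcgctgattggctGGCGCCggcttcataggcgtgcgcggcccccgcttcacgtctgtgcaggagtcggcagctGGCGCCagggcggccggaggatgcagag
Tal1 promoter 1: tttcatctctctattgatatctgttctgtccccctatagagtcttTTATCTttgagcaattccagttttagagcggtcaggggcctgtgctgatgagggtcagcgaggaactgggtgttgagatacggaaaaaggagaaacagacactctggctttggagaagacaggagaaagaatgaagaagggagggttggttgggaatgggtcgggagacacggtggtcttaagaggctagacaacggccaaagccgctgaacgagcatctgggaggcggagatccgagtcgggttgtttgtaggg
Ets2 promoter: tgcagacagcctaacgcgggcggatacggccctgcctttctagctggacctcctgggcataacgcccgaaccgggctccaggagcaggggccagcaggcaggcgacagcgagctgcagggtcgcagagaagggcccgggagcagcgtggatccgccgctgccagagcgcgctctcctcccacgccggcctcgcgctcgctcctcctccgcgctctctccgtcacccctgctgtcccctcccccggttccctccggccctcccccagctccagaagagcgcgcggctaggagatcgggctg
The GC-rich SMAD1/5 motif GGCGCC occurred at 2 places in *Gata2* promoter 2, with first bases at -38 and 22 from the start base, which is counted as 0. It occurred at 1 place in the *Elk3* window, at 33, and in none of the other 7 windows, against 11.9% of 32851 promoters of the same length. That share was not matched for base composition. G and C made up 73.7% of *Gata2* promoter 2 and 71.3% of the *Elk3* window, and 71.7% of the *Ets2* window, which had no match. The GATA motif AGATAA occurred in *Tal1* promoter 1, read as TTATCT from -205 on the strand shown, and in the third *Erg* window, against 11.2% of all promoters. The palindromic SMAD motif GTCTAGAC (0.213% of all promoters), the SOX motif ACAAAG (18.7%) and the ETS motif ACCGGAAGT (1.1%) were found in none of the 9 windows. No 2 matches overlapped. A match in letters is not a measured binding site.

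Library totals lay between 14869115 and 17242117 counts, so the members, with 56 to 5489 counts in a library, were measured in every library. *Eng* itself followed the labels: in PBS it had 6253 to 9039 counts in Ctrl libraries and 632 to 1017 in KO libraries, a log2 fold change of -3.15 ± 0.11 (SE). Of 12 endothelial markers, *Erg* among them, none was at 0 in any library; VE-cadherin (*Cdh5*) had 24142 to 43758 counts. Of 10 blood cell markers, 6 stayed under 1 CPM (counts scaled to library size and TMM-normalised) everywhere, and the pan-leukocyte gene *Ptprc* had at most 5 counts. The others were *Cd68* (27.3 to 40.2 CPM), *Lyz2* (3.07 to 13.5), *Csf1r* (1.05 to 5.53) and *Laptm5* (0.301 to 1.60). Of 5 lymphatic markers, *Lyve1* was highest, at 3036 to 5712 CPM, followed by *Flt4* at 386 to 1269. *Prox1* (6.34 to 66.1 CPM), *Pdpn* (12.8 to 161) and *Reln* (6.37 to 355) were lower. Summed mural and fibroblast markers ran from 76.4 to 699 CPM over the libraries. Libraries of the same isolation deviated from their group means together (mean r = 0.757 over 24 pairs, lowest 0.670), and the isolation is therefore a term in every test below. In bulk RNA, fewer cells of a type and less RNA per cell cannot be told apart.

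Levels were compared between genes as CPM per kilobase of gene length. In PBS-treated Ctrl cells *Erg* was at the top with 68.9 ± 17.1 CPM per kilobase (SD, n = 4), followed by *Elk3* (45.8 ± 14.1), *Sox7* (44.6 ± 9.04), *Ets2* (39.1 ± 5.04) and *Ets1* (33.1 ± 5.48). *Gata2* (25.95 ± 7.59), *Sox18* (16.9 ± 9.76), *Fli1* (13.9 ± 7.74) and *Tal1* (11.95 ± 1.99) were lower, and *Sox17* was last at 1.42 ± 0.86. Every neighbouring pair in this order overlapped over the 4 libraries, except *Tal1* and *Sox17*. Within the SoxF family, *Sox7* thus exceeded *Sox17* in every PBS library of Ctrl cells (32.5 to 54.2 against 0.817 to 2.66 CPM per kilobase). With sENG(M):BMP9, *Sox18* moved from place 7 to place 1 at 108 ± 71.1 CPM per kilobase, with a range of 41.3 to 176 that still overlapped that of *Erg* (46.7 to 86.0). *Sox18* took the same places in KO cells, with 17.3 ± 9.46 CPM per kilobase in PBS and 91.0 ± 57.0 with pro:BMP9. The order changes where length is not taken into account; then *Ets1*, a gene with a long transcript, comes first over all 16 libraries.

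**Figure D1:**
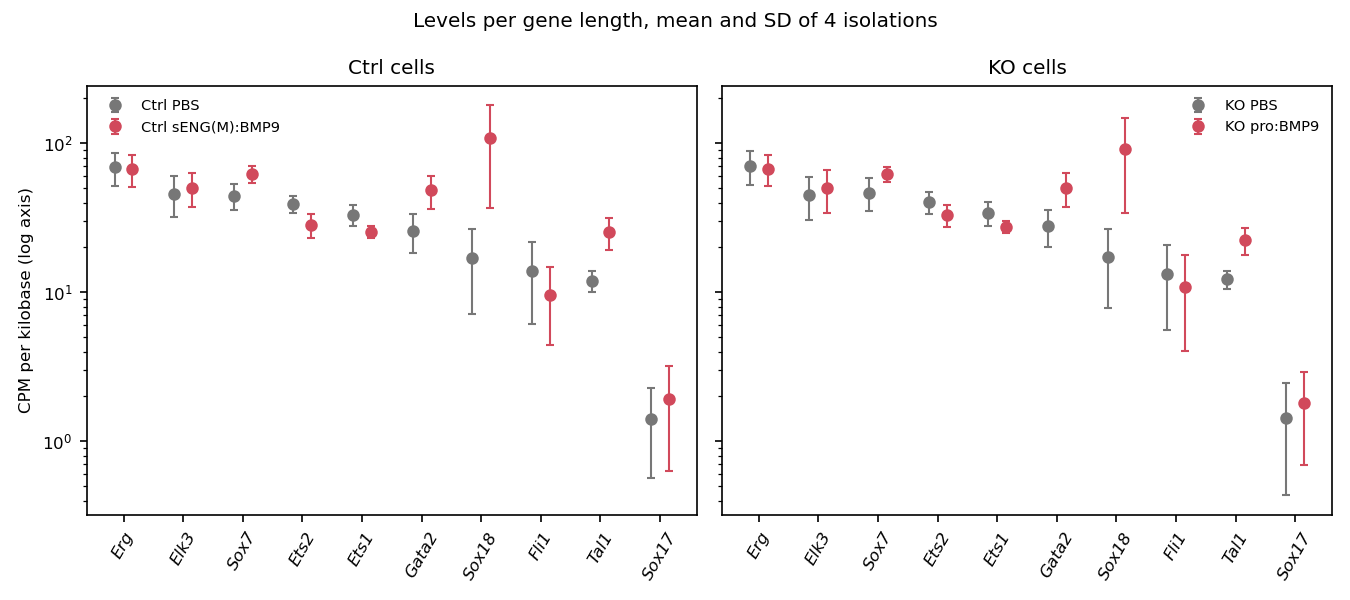
Levels of the 10 genes in CPM per kilobase of gene length on a log axis, as mean (points) and SD (bars) of 4 isolations, with PBS in grey and ligand in red. Ctrl cells are on the left and KO cells on the right, both in the order of PBS-treated Ctrl cells; *Sox18* goes from 16.9 to 108 in Ctrl cells, and *Sox17* stays under 4 in every library.

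The isolation accounted for most of the variation of 4 genes over the 16 libraries. It took 98.6% of the sum of squares of log2 CPM for *Erg*, 94.9% for *Elk3*, 91.8% for *Fli1* and 89.8% for *Sox17*. Mean *Fli1* over the 4 libraries of an isolation was 52.6, 69.3, 18.1 and 25.8 CPM in isolations 1 to 4. Mean *Sox18* was 141 and 151 CPM in isolations 1 and 2 and 43.9 and 42.4 in isolations 3 and 4. *Fli1* and *Sox18* were therefore both higher in every group in isolations 1 and 2 than in 3 and 4. The sum of the endothelial markers also moved with the isolation, at 5912 to 6699, 7788 to 7882, 3595 to 3890 and 5474 to 5813 CPM, as did that of the mural and fibroblast markers, at 427 to 606, 76.4 to 90.8, 605 to 699 and 335 to 527 CPM. Their part in the levels of the members was not tested. The ligand took the largest share for *Tal1* (77.0%), *Sox18* (68.1%) and *Gata2* (61.7%). It took about as much as the isolation for *Sox7* (47.4% against 45.6%), *Ets1* (45.5% against 46.4%) and *Ets2* (45.2% against 45.0%). The genotype took at most 4.80% for any member, the value for *Ets2*.

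The first question was how these genes respond to 90 min of ligand. In Ctrl cells *Sox18*, *Tal1*, *Gata2* and *Sox7* rose, *Fli1*, *Ets2* and *Ets1* fell, and *Sox17*, *Elk3* and *Erg* did not pass the test (edgeR quasi-likelihood test, Benjamini-Hochberg adjusted p under 0.05 over 15693 genes). That is 4 of 10 higher, against 5.86% of all genes tested, and 3 of 10 lower, against 3.83%. In KO cells again 4 of 10 were higher, against 3.68% of all genes, and 3 of 10 lower, against 1.92%. The 10 genes were chosen with earlier results of these data known, so an excess over these shares is no independent support. The 7 genes called were the same in both genotypes and moved the same way. The median log2 fold change of the 10 was 0.27 in Ctrl and 0.25 in KO cells, beside -0.01 and 0.00042 over all genes tested. At an unadjusted p under 0.05 it was 9 of 10 in each genotype, beside 3072 and 2215 of the 15693 genes.

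**Figure D2:**
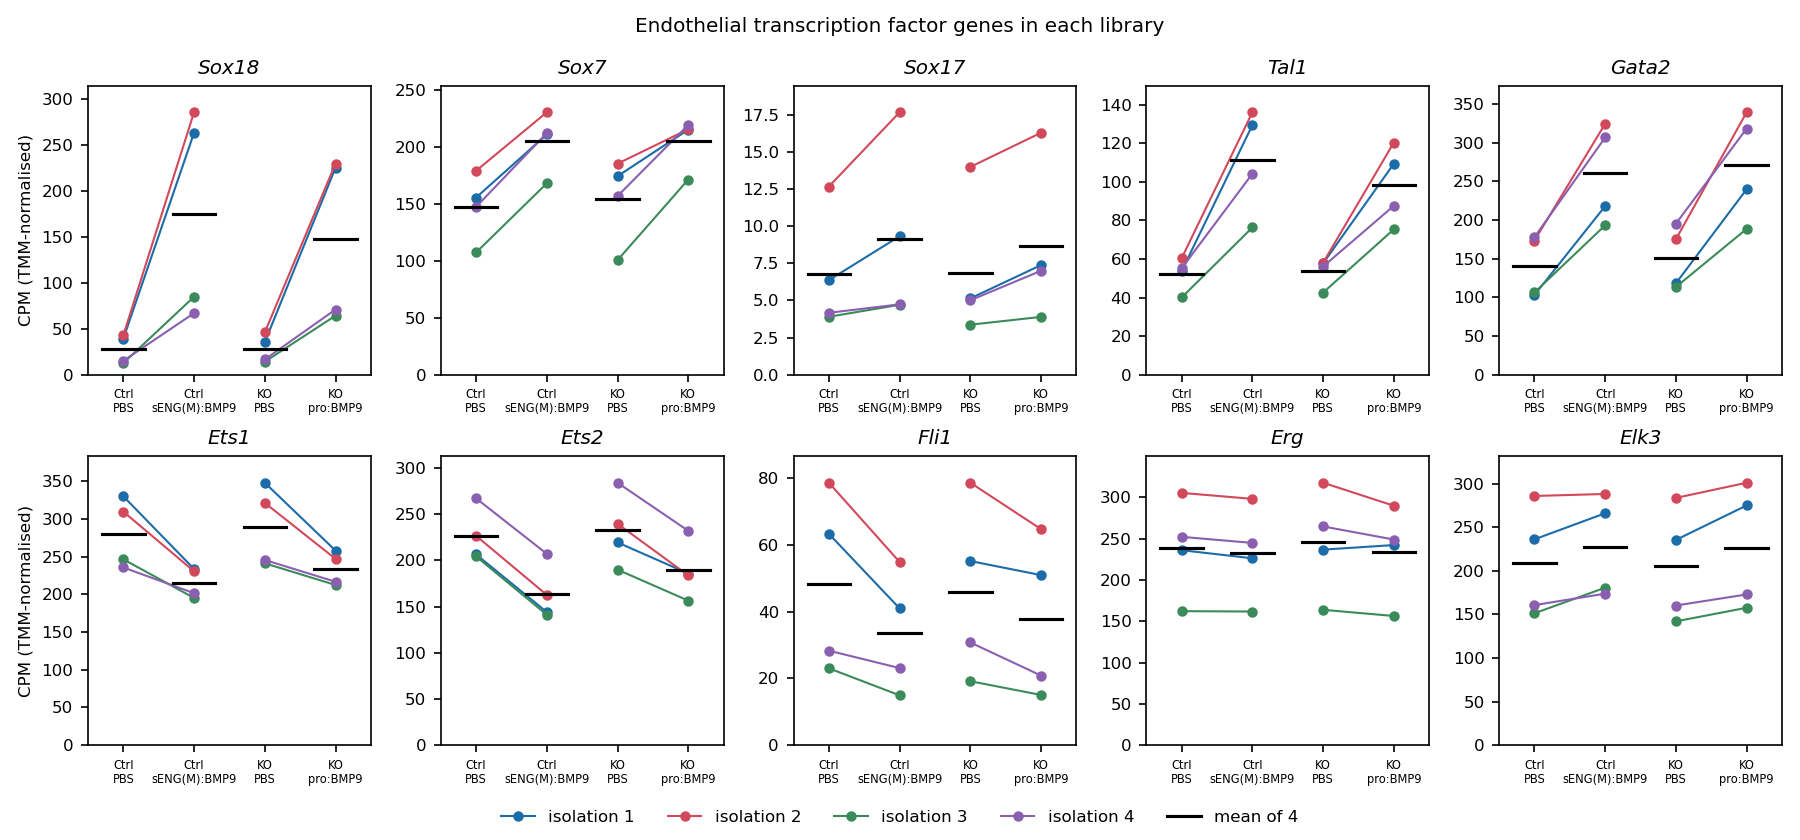
CPM (TMM-normalised) of each of the 10 genes in all 16 libraries, one panel a gene with its own axis from 0. Points are libraries, colours are the 4 isolations, lines join PBS and ligand of 1 isolation and genotype, and black bars are means of 4. Along every line, *Sox18*, *Tal1*, *Gata2* and *Sox7* go up and *Ets1*, *Ets2* and *Fli1* go down. *Sox17* and *Elk3*, which did not pass the test, also go up along every line, while *Erg* is nearly level.

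*Sox18*, which is needed for lymphatic and blood vessel development, had the largest response of the 10. Its counts in isolations 1 to 4 were 602, 653, 209 and 250 in Ctrl cells with PBS and 4430, 4264, 1459 and 1159 with sENG(M):BMP9. In CPM these are 39.1, 42.9, 12.5 and 15.1 against 263, 286, 84.8 and 67.0, so that the groups did not overlap although isolations 3 and 4 lay far under 1 and 2. The log2 fold change was 2.62 ± 0.10 (SE), or 6.16-fold, with a 95% interval of 2.42 to 2.82 (edgeR adjusted p = 8.05e-13). Among all 15693 genes it ranked 9 by p and 18 by rise. In KO cells the counts were 558, 703, 234 and 280 with PBS and 3263, 3649, 990 and 1084 with pro:BMP9, again without overlap in CPM (14.1 to 46.0 against 64.2 to 230). The rise was 2.35 ± 0.10, or 5.09-fold (interval 2.15 to 2.55, edgeR adjusted p = 6.48e-12), and it ranked 7 by p and 15 by size.

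*Sox7*, the SoxF gene with the highest PBS level, rose less. Ctrl cells had 155, 179, 107 and 147 CPM with PBS and 211, 230, 168 and 212 CPM with ligand in isolations 1 to 4. KO cells had 174, 185, 100 and 157 CPM with PBS and 215, 215, 171 and 219 CPM with ligand. All 8 pairs went up, but the groups overlapped in both genotypes, since PBS-treated cells of isolation 2 exceeded ligand-treated cells of isolation 3. The log2 fold change was 0.49 ± 0.07 in Ctrl (edgeR adjusted p = 3.03e-05) and 0.44 ± 0.07 in KO cells (edgeR adjusted p = 1.98e-04). *Sox17*, a factor of arterial endothelium, was the least abundant member at 56 to 264 counts. It had 98, 193, 65 and 69 counts in Ctrl cells with PBS and 157, 264, 81 and 82 with ligand, and isolation 2 was highest in every group. Its log2 fold changes of 0.40 ± 0.13 in Ctrl (interval 0.12 to 0.68, edgeR adjusted p = 0.0695) and 0.35 ± 0.14 in KO cells (0.07 to 0.63, edgeR adjusted p = 0.198) did not pass the test, with all 4 isolations higher in each.

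*Tal1*, which specifies haemangioblasts and blood stem cells, came second. Ctrl cells had 53.7, 60.4, 40.0 and 55.2 CPM with PBS and 129, 136, 76.4 and 104 CPM with ligand. KO cells had 57.7, 58.1, 42.6 and 56.1 CPM with PBS and 109, 120, 75.4 and 87.6 CPM with ligand. In both genotypes the lowest ligand-treated library, that of isolation 3, lay above the highest PBS-treated one. The log2 fold change was 1.08 ± 0.06 in Ctrl (2.11-fold, edgeR adjusted p = 1.21e-09) and 0.86 ± 0.06 in KO cells (1.82-fold, edgeR adjusted p = 4.08e-08). *Gata2*, its partner and a regulator of *Kdr* and *Vwf*, followed. Ctrl cells had 103, 173, 106 and 178 CPM with PBS and 218, 324, 193 and 307 CPM with ligand, with no overlap. KO cells had 118, 175, 113 and 195 CPM with PBS and 240, 339, 188 and 318 CPM with ligand, where isolation 4 in PBS and isolation 3 with ligand overlapped. The log2 fold change was 0.90 ± 0.05 in Ctrl (1.87-fold, edgeR adjusted p = 1.08e-09) and 0.85 ± 0.05 in KO cells (1.81-fold, edgeR adjusted p = 4.39e-09).

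Of the 5 ETS members, 3 fell. *Ets1*, which binds angiogenic gene promoters, had 330, 310, 247 and 236 CPM in Ctrl cells with PBS and 234, 231, 195 and 202 CPM with ligand. In KO cells it had 348, 322, 241 and 246 CPM with PBS and 258, 247, 213 and 217 CPM with ligand. The groups did not overlap in Ctrl cells but did in KO cells. It fell by 0.37 on the log2 scale in Ctrl (SE 0.05, to 77.3% of PBS, edgeR adjusted p = 1.57e-05) and by 0.29 in KO cells (SE 0.05, to 81.5%, edgeR adjusted p = 3.54e-04). *Ets2*, its closest relative, had 206, 227, 204 and 267 CPM in Ctrl cells with PBS and 144, 163, 141 and 207 CPM with ligand. In KO cells it had 219, 240, 190 and 284 CPM with PBS and 186, 184, 156 and 232 CPM with ligand. Isolation 4 was highest in every group, and its ligand-treated libraries overlapped the PBS-treated ones of other isolations. *Ets2* fell by 0.47 in Ctrl (SE 0.04, to 72.0%, edgeR adjusted p = 2.95e-07) and by 0.30 in KO cells (SE 0.04, to 81.3%, edgeR adjusted p = 1.23e-04).

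*Fli1*, which keeps vessel walls stable together with *Erg*, fell as well. Ctrl cells had 63.4, 78.7, 23.0 and 28.3 CPM with PBS and 41.0, 54.9, 14.94 and 23.1 CPM with ligand. KO cells had 55.2, 78.7, 19.2 and 30.8 CPM with PBS and 51.0, 64.8, 15.1 and 20.9 CPM with ligand. Each isolation went down, while the groups overlapped widely because isolations 1 and 2 were higher than 3 and 4 throughout. The fall was 0.52 in Ctrl cells on the log2 scale (to 69.7%, edgeR adjusted p = 3.85e-05). In KO cells *Fli1* fell by 0.31 (to 80.9%, edgeR adjusted p = 0.0104), a call that was lost without replicate 2 (edgeR adjusted p = 0.0706) or replicate 4 (0.0686). *Erg*, the highest member in PBS per kilobase of gene length, stood at 239 ± 59.1 CPM in Ctrl cells with PBS and 233 ± 56.3 with ligand, and at 246 ± 64.1 and 234 ± 56.1 in KO cells (SD, n = 4). Its log2 fold changes of -0.04 (interval -0.11 to 0.04) in Ctrl and -0.06 (-0.14 to 0.0069) in KO cells did not pass the test (edgeR adjusted p = 0.662 and 0.434). *Elk3*, a ternary complex factor, showed 0.14 in each genotype (interval 0.05 to 0.23 in Ctrl and 0.05 to 0.24 in KO cells), which did not pass at edgeR adjusted p = 0.058 and 0.0781. All 4 isolations were higher with ligand in each genotype.

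**Figure D3:**
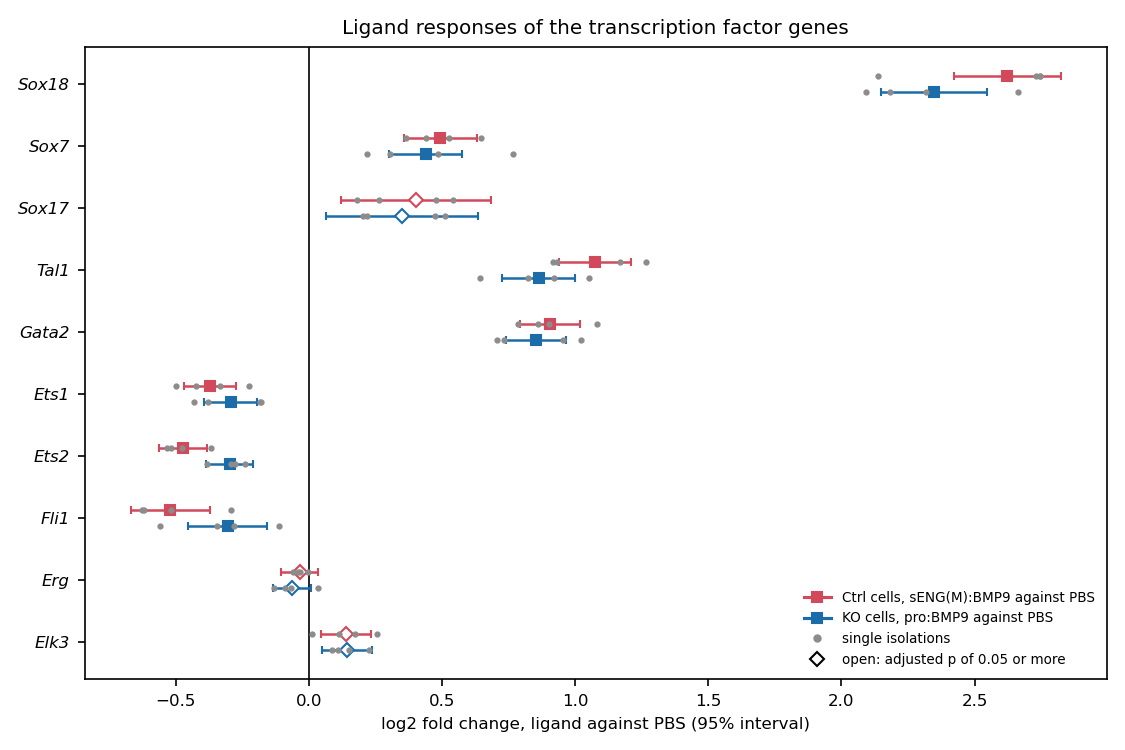
Log2 fold changes of ligand against PBS for the 10 genes in Ctrl cells (red) and KO cells (blue), with 95% intervals and single isolations as grey points. Filled squares passed an adjusted p of 0.05 and open diamonds did not; *Sox18* lies at 2.62 and 2.35, *Tal1*, *Gata2* and *Sox7* between 0.44 and 1.08, and *Ets1*, *Ets2* and *Fli1* between -0.52 and -0.29.

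These calls rest on comparing libraries within an isolation. Without that term the log2 fold changes stayed close (2.68 for *Sox18*, 0.89 for *Gata2* and -0.53 for *Fli1* in Ctrl cells), but of the 7 calls in Ctrl cells only *Tal1* passed (edgeR adjusted p = 0.00946, against 0.0712 for *Sox18* and 0.184 for *Gata2*) and none did in KO cells (*Tal1* 0.0761, *Sox18* 0.224).

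The second question was whether *Eng* loss itself changed the genes. In PBS no member passed the test, 0 of 10, beside 0.0191% of all genes (3 genes: *Eng*, *Dcn* and *Col3a1*), and at an unadjusted p under 0.05 it was also 0 of 10 beside 1071 genes. The member nearest to the threshold was *Gata2*, with a log2 difference of 0.11 ± 0.05 (interval -0.01 to 0.22, higher in KO in 4 of 4 isolations, edgeR adjusted p = 0.749). The intervals bound the other differences. *Sox18* was at 0.05 (-0.17 to 0.27), *Tal1* at 0.04 (-0.10 to 0.18), *Sox7* at 0.06 (-0.08 to 0.20) and *Sox17* at -0.00316 (-0.29 to 0.29). Among ETS genes the widest interval was that of *Fli1* (-0.23 to 0.06), and those of *Erg*, *Ets1*, *Ets2* and *Elk3* lay within -0.12 and 0.14.

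With ligand, 1 of 10 passed, beside 0.255% of all genes: *Ets2* was higher in KO cells by 0.21 ± 0.04 on the log2 scale (interval 0.12 to 0.30, edgeR adjusted p = 0.0447). It was higher in 4 of 4 isolations, by 0.37, 0.18, 0.15 and 0.16, and the groups overlapped in CPM (141 to 207 in Ctrl and 156 to 232 in KO cells). The call was kept in 6 of 12 alternatives: with DESeq2 (adjusted p = 0.00553), its size factors in edgeR (0.0495), no filter (0.000121), limma-voom (0.0381), ComBat with DESeq2 (2.03e-05) and without replicate 4 (0.0338). It was lost in the other 6: without replicate 1 (edgeR adjusted p = 0.326), 2 (0.16) or 3 (0.0672), without the isolation term (adjusted p of 1), with only the libraries of this comparison (0.0739) and with a filter of 10 counts in every library (0.0509). Another 3 members had an unadjusted p under 0.05 and did not pass. *Sox18* was at -0.22 (interval -0.40 to -0.05, edgeR adjusted p = 0.331), lower in 3 of 4 isolations and higher in isolation 4. *Tal1* was at -0.17 (-0.30 to -0.04, edgeR adjusted p = 0.295), lower in 4 of 4. *Ets1* was at 0.12 (0.02 to 0.22, edgeR adjusted p = 0.397), higher in 4 of 4. *Sox18* passed in 3 of 12 alternatives: without replicate 4 at -0.31 (edgeR adjusted p = 0.0135), without a filter on low counts (edgeR adjusted p = 0.000938) and with quantile normalisation, ComBat and DESeq2 (adjusted p = 0.0209). *Tal1* passed in 1 of 12, with ComBat and DESeq2 (adjusted p = 0.012). Without a filter, 517 genes passed in this comparison, against 40 in the main fit. ComBat with DESeq2 also called more genes than the main fit, so a call in either setting is weak support. Of 10 mural and fibroblast markers, *Dcn* (log2 difference -0.61) and *Pdgfrb* (-0.29) were lower in KO cells with ligand. The summed level of all 10 was lower in KO than in Ctrl cells in 4 of 4 isolations, with ligand at 449 against 606, 76.4 against 90.8, 605 against 699 and 335 against 527 CPM in isolations 1 to 4. In PBS it was also lower in 4 of 4, at 427 against 599, 79.9 against 85.9, 608 against 678 and 352 against 512 CPM. Their part in these differences was not tested.

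**Figure D4:**
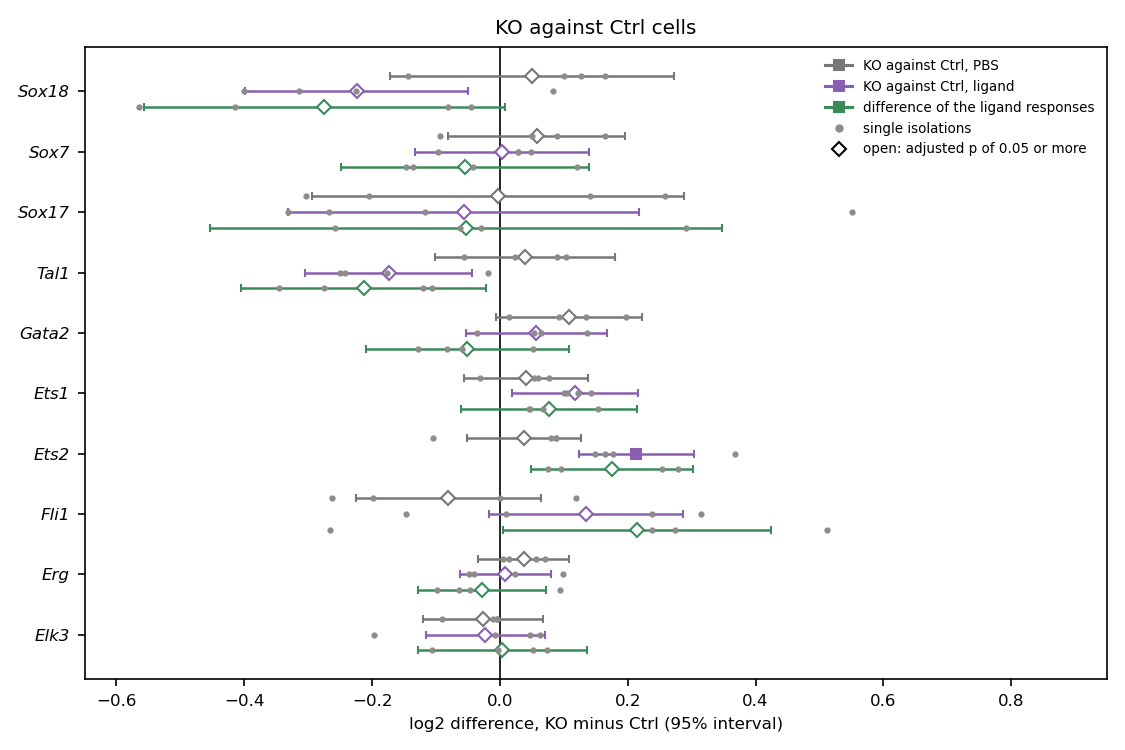
Log2 differences of KO against Ctrl cells for the 10 genes, in PBS (grey), with ligand (purple) and as the difference of both ligand responses (green), with 95% intervals and single isolations as grey points. The filled square, *Ets2* with ligand at 0.21, passed an adjusted p of 0.05, and the open diamonds did not.

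The third question was whether the ligand response itself differed between KO and Ctrl cells. For the 7 genes that responded, the log2 fold change was nearer to 0 in KO cells than in Ctrl cells. Over all genes tested, fewer were called with ligand in KO cells (878) than in Ctrl cells (1521). The median absolute log2 fold change over all genes was also smaller in KO cells, at 0.079 against 0.093. The share of all responding genes with a smaller change in KO cells was not counted, so the smaller change is not read as particular to these 7. No member passed the test of the difference, 0 of 10, beside 0% of all genes in edgeR, while 565 genes had an unadjusted p under 0.05, 3 members among them. *Ets2* had a difference of 0.18 ± 0.06 (KO minus Ctrl, interval 0.05 to 0.30, unadjusted p = 0.00955 in edgeR, adjusted p of 1) and a weaker fall in KO cells in 4 of 4 isolations. *Tal1* had -0.21 ± 0.09 (-0.41 to -0.02, edgeR adjusted p = 1, 0.0312 unadjusted), a smaller rise in KO cells in 4 of 4 isolations. *Fli1* had 0.21 ± 0.10 (0.0048 to 0.42, edgeR adjusted p = 1, 0.0455 unadjusted), with isolation 4 going the other way. *Sox18* had -0.27 ± 0.13 (-0.56 to 0.0076, edgeR adjusted p = 1, 0.0558 unadjusted), with a smaller rise in KO cells in 4 of 4 isolations. These comparisons use the same 16 libraries as the ones above and are no separate evidence. The other 6 had intervals that included 0, of which the narrowest was that of *Erg* (-0.13 to 0.07).

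Genes with the pattern most like a member's were found by Pearson's r of log2 CPM over the 16 libraries after removing isolation means, among 9545 genes with a mean of at least 10 CPM. These libraries share their treatments, so that any strongly responding gene has a high r. Nearest to *Sox18* were *Foxc2* (r = 0.997) and *Smad6* (0.996), the latter an inhibitor of SMAD signalling, with log2 fold changes in Ctrl cells of 3.19 and 3.45. Nearest to *Gata2* were *Sgk1* (0.987) and *Smad7* (0.987), and nearest to *Tal1* were *Spsb1* (0.996) and *Gse1* (0.993). *Sox7* was closest to *Sh3bp2* (0.978) and *Adgrg1* (0.976). Among those that fell, *Ets1* was closest to *Bcl6b* (0.985) and *Mat2a* (0.985), *Ets2* to *Cdc42ep2* (0.980) and *Klf11* (0.977), and *Fli1* to *Mnt* (0.960) and *Ahr* (0.959).

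Relatives outside the 10 were counted from lists of family members. The counts of these lists and of the target genes stand beside 5.86% higher and 3.83% lower over all genes tested in Ctrl cells, and 3.68% and 1.92% in KO cells. Of 17 other Sox genes, 7 could be tested, of which 2 rose and 1 fell in Ctrl cells and 1 rose and 1 fell in KO cells. *Sox13*, a SoxD gene, rose by 0.88 in Ctrl and 0.56 in KO cells on the log2 scale, *Sox4* fell by 0.41 and by 0.34, and *Sox11* rose by 0.78 in Ctrl cells. Of 22 other ETS genes, 12 could be tested, of which 4 rose and 1 fell in Ctrl cells and 3 rose and none fell in KO cells. *Erf*, a repressor of the ETS family, rose most, by 1.06 in Ctrl and 0.85 in KO cells. *Elf4* rose by 0.51 and 0.34 and *Etv3*, also a repressor, by 0.19 and 0.26. *Elf2* rose by 0.39 and *Elf1* fell by 0.13 in Ctrl cells. No gene of either list passed a KO against Ctrl comparison.

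Of 16 other GATA genes and partners of TAL1 and GATA2, 14 could be tested. In Ctrl cells 5 rose and 1 fell, and in KO cells 5 rose and 2 fell. *Cbfa2t3* (ETO2), a corepressor of the TAL1 complex, rose by 1.74 in Ctrl and 1.31 in KO cells on the log2 scale. *Zfpm1* (FOG1), a GATA cofactor, rose by 0.87 and 0.65, and *Lyl1*, the closest relative of *Tal1*, by 0.56 and 0.47. *Gata6* rose by 0.49 in Ctrl cells and *Runx1* by 0.45 in KO cells. The bridging factor *Lmo2* fell by 0.22 in Ctrl and by 0.23 in KO cells, and *Gata3* fell by 0.26 in KO cells. None passed a KO against Ctrl comparison.

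Of 40 endothelial genes known to be bound or controlled by SoxF, ETS or GATA2 proteins, 8 rose and 9 fell in Ctrl cells, and 7 rose and 6 fell in KO cells. The median log2 fold change of the 40 was 0.02 in Ctrl and 0.01 in KO cells. Among those that rose were the Notch effectors *Hey1* (3.55 in Ctrl, 2.82 in KO) and *Hey2* (1.44 and 1.86), endothelin-1 (*Edn1*, 1.95 and 1.88), the VEGF receptor *Kdr* (0.92 and 0.76) and *Eng* (0.48 and 1.23). In KO cells *Eng* is the deleted gene, and its counts there were residual. They were 632 to 1017 in PBS and 1667 to 2063 with ligand. The Notch ligands *Dll4* (-0.68 and -0.65) and *Dll1* (-0.62 and -0.44), the homeobox gene *Hhex* (-0.49 and -0.36) and the venous regulator *Nr2f2* (-0.46 and -0.35) fell. In KO against Ctrl cells with ligand only *Eng*, the deleted gene, and *Hey1* (-0.73) of the 40 passed, both lower. In PBS only *Eng* passed. The shares of all genes tested were 0.255% with ligand and 0.0191% in PBS. Of the 12 endothelial markers, *Kdr* and *Pecam1* (0.11) rose in Ctrl cells and *Kdr* in KO cells. Of 4 tested blood cell, 10 mural and fibroblast, 3 epithelial and 5 lymphatic markers, none passed in either ligand comparison.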

How the data were processed

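The authors deposited raw read counts per gene for 16 libraries, with gene symbols, coordinates and lengths. Per the labels, poly-A RNA was made into stranded libraries, reads were aligned to GRCm39 with HISAT2 2.0.5 and counted with featureCounts 1.5.0-p3, and DESeq2 1.26.0 was used after the counts. The annotation release and the strand setting are not given in the sources used here. Counts were tested as deposited in R 4.3.3 with edgeR 4.0.16: filterByExpr (minimum count 10, minimum total 15), TMM, and 1 quasi-likelihood fit over all 16 libraries with the isolation as a block. The replicate numbers follow the isolation names in the labels, so they pair the libraries. Same-numbered libraries deviated together (mean r = 0.757 over 24 pairs). The mean of -0.251 over the 72 others largely follows from subtracting group means and is no separate comparison. Adjusted p-values are Benjamini-Hochberg over 15693 genes, with a threshold of 0.05. SE is the absolute log2 fold change over the square root of F, and intervals are at 95%. Single isolations use log2 CPM with a prior count of 2. No pair of libraries of a group agreed within sampling noise. The fit was tested on simulated data with known changes.

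The 10 genes and all lists were chosen with earlier results of these data known. Named were all 10 genes, *Eng*, up to 4 genes in each direction of every list by log2 fold change among those that passed, and the 2 tested genes most like each responding member. *Cdh5*, *Ptprc* and *Lyve1* were named as markers. The other lymphatic markers, the blood cell markers that reached 1 CPM, and *Col3a1* were named after their values were seen. The comparisons were repeated with 12 alternatives: no block, DESeq2 1.42.0, its size factors, other filters on low counts, the libraries of a comparison alone, limma-voom (limma 3.58.1) with quantile normalisation, quantile normalisation with ComBat (sva 3.50.0) and DESeq2, and each replicate left out. Library totals were 14869115 to 17242117 counts. No library was left out. Promoter windows came from RefSeq (GRCm38.p6), and exons and overlapping genes from GENCODE on GRCm39.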

Additional observations from a re-analysis of the deposited data

Results flagged for a closer look

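Each member was looked at for a sample far from the others of its group, by the gap to the nearest sample over the range of 4, in 90 sets (CPM in 4 groups and log2 differences of single isolations in 5 comparisons). The limit was Dixon's 95% critical value, which chance alone passes in about 1 in 20 sets, and 8 sets passed it. In CPM, *Sox7* with pro:BMP9 was low in isolation 3 at 171, the next being 215. *Sox17* in KO cells with PBS was high in isolation 2 at 14.0, the next being 5.14. *Tal1* in KO cells with PBS was low in isolation 3 at 42.6, the next being 56.1.

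Among the log2 differences, the rise of *Sox18* in Ctrl cells was smaller in isolation 4 at 2.14 than in the other isolations, the nearest of which was at 2.73. The KO against Ctrl difference of *Ets2* with ligand was 0.367 in isolation 1, with the next at 0.18, and in PBS it was -0.105 in isolation 3, with the next at 0.08. That of *Sox7* with ligand was -0.0968 in isolation 2, with the next at 0.03, and that of *Elk3* in PBS was -0.091 in isolation 3, with the next at -0.01.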

How the results depend on the processing

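No ligand response of a member changed direction under any of the 12 alternatives. Calls depended on the block: without the replicate block, 167 genes (1 member) in Ctrl cells and 91 genes (0 members) in KO cells were called with ligand, and 1 gene in each KO against Ctrl comparison (0 members with ligand). In KO against Ctrl cells in PBS, 7 genes were called by DESeq2, 204 without a filter, 1 with only the libraries of the comparison, 13 by limma-voom and 169 with ComBat. With ligand these were 141 by DESeq2, 517 without a filter (2 members), 80 by limma-voom and 532 with ComBat (3 members), and 0 members with at least 10 counts in every library or with only the libraries of the comparison. ComBat gave 1344 genes for the ligand in KO cells, and the difference of the responses gave 52 genes without a filter and 17 with ComBat. Leaving out each replicate gave 573 to 745 genes for the ligand in KO cells, 1 to 69 for KO against Ctrl cells in PBS, and 6 to 175 (0 to 2 members) with ligand. Of the order of levels, 3 of 10 places stayed without the length correction. Replicate 4 gave the highest counts of the KO against Ctrl comparisons when left out. *Sox17* in Ctrl cells passed without a filter (adjusted p = 0.0222), with only the libraries of the comparison (0.0377), with ComBat (0.027) and without replicate 4 (0.032), and *Elk3* in both genotypes without a filter (0.0239 and 0.0273) and with ComBat (0.00564 and 0.00701), in KO cells with only the libraries of the comparison (0.0143) and in Ctrl cells without replicate 2 (0.0455). The causes were not tested.

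Differences near 0 changed sign without being called. In KO against Ctrl cells in PBS, *Sox17* was at 0.0211 without the replicate block, 0.000887 with RLE size factors, 0.0227 with limma-voom and -0.0816 to 0.0909 with a replicate left out. With ligand, *Sox7* was at -0.000386 without the replicate block, -0.00963 with limma-voom, -0.00705 with ComBat and -0.0122 to 0.0305 with a replicate left out. *Erg* was at -0.00255 with limma-voom, -0.00652 with ComBat and -0.0243 to 0.0269 with a replicate left out, *Sox17* at -0.227 to 0.0428 and *Elk3* at -0.0557 to 0.0344. For the difference of the responses, *Elk3* was at -0.000473 with DESeq2, -0.000666 with RLE size factors and -0.0249 to 0.0407 with a replicate left out, and *Sox17* at -0.149 to 0.0538. *Sox17* had the fewest counts of the members, 56 to 264 in a library.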
